A study of Mus musculus with 6 samples.

Results

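The 10 genes whose proteins pass signals between immune cells at the cell surface, the immune checkpoint ligands and a receptor pair among them, are described here in mouse B progenitor acute lymphoblastic leukemia. They are Vsir, Cd274, Btla, Tnfrsf14, Cd200, Cd47, Cd80, Cd86, Lgals9 and Icosl, 10 of the 26286 genes in the count table, and all 10 were found through their Entrez Gene identifiers. The genes were chosen by name, with the counts of untreated and doxycycline-treated leukemia already known from these same libraries, so the differences between these groups are given for them as a description and carry no p-value. RNA was sequenced from 6 libraries of leukemia cells sorted by flow cytometry from bone marrow of leukemic Rag1 knockout mice, a host that makes no mature T or B cells of its own but keeps its myeloid and natural killer cells. Per the labels the leukemia, A024, is tri-transgenic, and every library came from it. The 3 untreated libraries (0 days of doxycycline) hold GFP-high cells, and the 3 treated libraries hold GFP-mid cells from mice fed doxycycline (dox) for 3 days, which the labels call Pax5 restoration. Sort gate and treatment thus changed together and cannot be told apart. The labels do not name the transgenes or the animals' age. As background on the published model, GFP is made together with a hairpin RNA that lowers Pax5, a transcription factor of B cell identity, and dox shuts both off. Untreated mice without the transgenes and dox-fed controls were not analysed here.

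As background, T cells read costimulatory and inhibitory signals beside antigen. Cd80, Cd86 and Icosl, members of the B7 family, engage Cd28, Ctla4 or Icos and can raise or lower the response. Cd274 (PD-L1) and Vsir (VISTA) are B7-related molecules best known for restraining T cells. Btla is an inhibitory receptor of lymphocytes whose ligand is Tnfrsf14 (HVEM), itself a receptor for the cytokines Tnfsf14 (LIGHT) and lymphotoxin alpha. Cd47 and Cd200 address myeloid cells through Sirpa and Cd200r1, Cd47 being known as a signal against phagocytosis, and Lgals9 (galectin-9) is a secreted lectin that binds Havcr2 (TIM-3). Vsir is best known from myeloid cells, and Cd80, Cd86 and Icosl from antigen-presenting cells and mature B cells.

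The libraries held 14185203 to 15612435 counts, and levels are given as CPM, a gene's counts relative to its library's total after trimmed-mean scaling. Pax5 measured 153.8, 93.5 and 105.2 CPM in untreated replicates 1, 2 and 3 and 227.2, 281.2 and 230.6 CPM in dox replicates 1, 2 and 3. Dox values all exceeded untreated values, and Pax5 RNA was present before dox (log2 fold change 1.07, SE 0.17, adjusted p = 0.000695, edgeR quasi-likelihood test). The 6 B lineage genes reported here, among them Cd79a and Vpreb1, summed to 3211, 2878 and 2934 CPM in untreated replicates 1, 2 and 3. In dox replicates 1, 2 and 3 their sums were higher, at 7053, 6360 and 6196 CPM. In both groups every library is a mouse carrying the same leukemia, so errors measure the spread between such mice. In sorted bulk cells, fewer cells of a type and less RNA per cell cannot be told apart, which holds for each value below.

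Vsir stood apart from the other members. It measured 10.8, 11.3 and 9.72 CPM in untreated replicates 1, 2 and 3 and 133.8, 128.0 and 107.3 CPM in dox replicates 1, 2 and 3, from 465 untreated and 5548 dox counts in all. The lowest dox library thus lay far above the highest untreated one, and libraries of a group lay close together, with coefficients of variation of 7.47% untreated and 11.3% after dox. Its mean went from 10.6 ± 0.790 to 123.0 ± 13.9 CPM (SD, n = 3 each), a fold change of 11.6 (log2 fold change 3.54, SE 0.11). Of the 12275 genes tested, 54 (0.44%) had a larger fitted rise. Among the members, Cd86 had the next largest fitted fold change, 4.59.

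**Figure D1:**
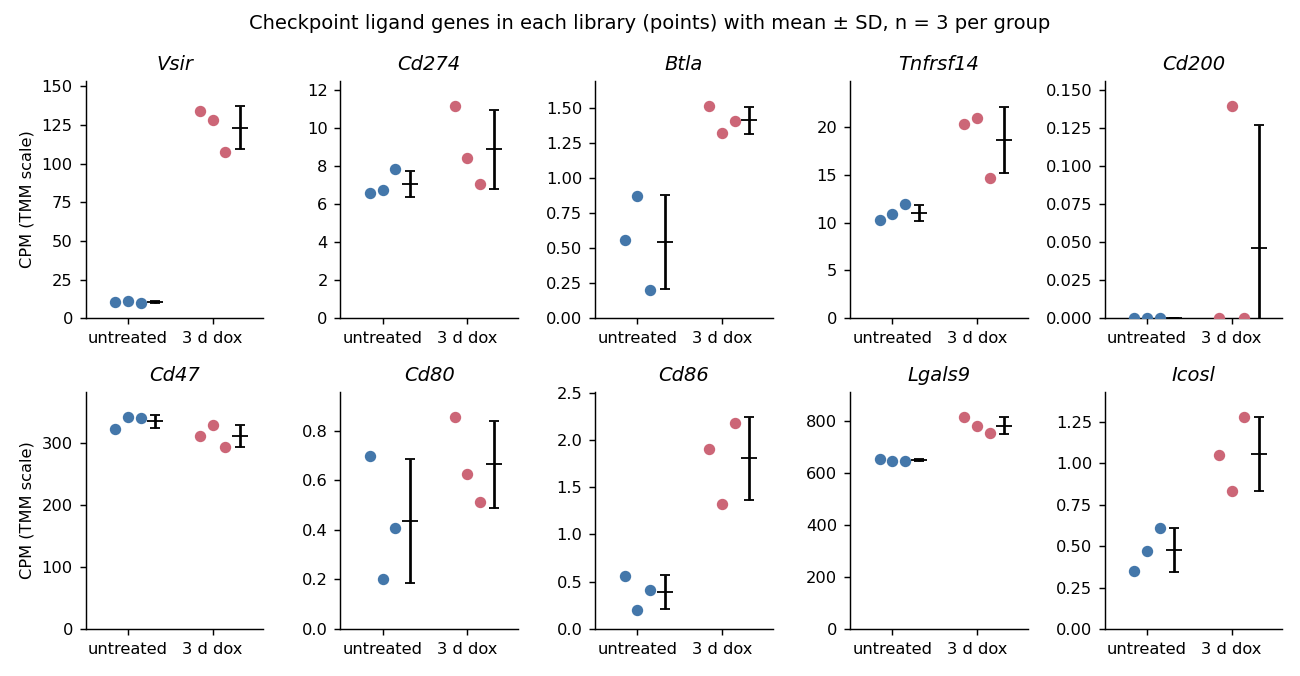
Level of each of the 10 genes (vertical axes, CPM, linear and starting at 0) in the 3 untreated (blue) and 3 dox libraries (red), with mean ± SD beside each group (the SD of Cd200 is cut at 0). Vsir lies between 9.72 and 11.3 CPM untreated and between 107.3 and 133.8 CPM after dox, while the points of Cd47, Cd274 and Cd80 overlap between groups.

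Vsir lies inside the span of another gene, Cdh23, a cadherin gene transcribed from the opposite strand. The strand setting of the counting is not given in the sources used here, so the reads of overlapping genes cannot be told apart by strand. Cdh23 itself was counted 11, 5 and 2 times in untreated replicates 1, 2 and 3 and 43, 24 and 23 times in dox replicates 1, 2 and 3, against 154, 168 and 143 and then 2033, 1839 and 1676 counts of Vsir. Even the highest Cdh23 count was thus small beside the counts of Vsir in the same library. The log2 fold change of Cdh23 was 2.255 (SE 0.51, adjusted p = 0.00476, edgeR), with 10 or more counts in 1 untreated library. Of the nearest genes outside that span, Psap, which encodes a lysosomal precursor protein, rose by 0.86 on the log2 scale (SE 0.14, adjusted p = 0.000764, edgeR), and Slc29a3, a nucleoside transporter gene, changed by 0.23 (SE 0.12, adjusted p = 0.122, edgeR).

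The stretch upstream of the start of Vsir is shown because Vsir carries the largest difference, and that of Cd47 because Cd47 is the member with the highest counts whose groups overlapped. Both are the 250 bases before the gene's start in RefSeq (build GRCm38.p6, another build than the counts, which rest on mm9), 5′ to 3′ on the gene's own strand. They lie at chr10:60346601-60346850 (plus strand) and chr16:49855404-49855653 (plus strand, the first of 2 listed starts).
Vsir: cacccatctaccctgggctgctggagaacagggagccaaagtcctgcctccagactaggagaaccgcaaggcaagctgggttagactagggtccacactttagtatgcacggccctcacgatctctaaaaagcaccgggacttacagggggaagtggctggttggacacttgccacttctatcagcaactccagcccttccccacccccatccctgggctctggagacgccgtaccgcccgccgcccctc
Cd47: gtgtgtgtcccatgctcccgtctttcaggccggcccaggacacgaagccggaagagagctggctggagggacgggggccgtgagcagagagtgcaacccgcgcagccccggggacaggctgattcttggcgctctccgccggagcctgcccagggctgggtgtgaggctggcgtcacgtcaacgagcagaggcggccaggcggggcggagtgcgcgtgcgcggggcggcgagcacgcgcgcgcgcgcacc
Neither stretch is capitalised anywhere, since none of the 3 motifs looked for was found in it. Those were GCGTGAC, the core of known sites of paired-domain factors such as Pax5, GAAANNGAA, the core of the interferon response element, and the kappaB consensus, each on both strands. They occurred in 1.78%, 7.13% and 7.25% of the 32851 stretches of this length in the table. The stretch of Vsir had 60.4% G and C and 9 CpG dinucleotides, and that of Cd47 had 73.2% and 30, against medians of 52.4% and 6 over all. A stretch without these letters says nothing about the factors.

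Lgals9 and Cd47 made up most of the members' RNA before and after dox. Lgals9 measured 652.2, 646.5 and 645.8 CPM in untreated replicates 1, 2 and 3 and 814.6, 779.4 and 752.9 CPM in dox replicates 1, 2 and 3. Untreated values were almost equal and the dox values all lay above them, a rise of 1.21-fold (log2 fold change 0.27, SE 0.07). Cd47 measured 323.8, 342.5 and 341.2 CPM untreated and 311.3, 329.3 and 293.7 CPM after dox in the same order. Its groups overlapped, with dox replicate 2 above untreated replicate 1, and the fitted difference was −0.11 on the log2 scale (SE 0.07). Together these genes held 97.0% of the members' summed CPM in untreated cells and 87.6% after dox, while the share of Vsir went from 1.04% to 9.83%.

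Cd274 showed no clear separation. Untreated replicates 1, 2 and 3 had 6.57, 6.71 and 7.82 CPM of it, and the dox replicates in the same order had 11.1, 8.42 and 7.04 CPM. Dox replicate 3 thus lay below untreated replicate 3. Its log2 fold change was 0.33 (SE 0.19). Tnfrsf14 measured 10.3, 10.9 and 11.96 CPM untreated and 20.4, 21.0 and 14.7 CPM after dox. The dox libraries all lay above the untreated ones, replicate 3 least so, and the rise was 1.69-fold (log2 fold change 0.76, SE 0.15).

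Btla, the receptor that binds Tnfrsf14, was scarce. It was counted 8, 13 and 3 times in untreated replicates 1, 2 and 3 and 23, 19 and 22 times in dox replicates 1, 2 and 3. Groups did not overlap, and the ratio of summed counts was 2.59 (exact binomial 95% interval 1.6 to 4.33, which covers counting error only). On the CPM scale the untreated libraries differed most among themselves, from 0.204 to 0.872, and the dox libraries lay between 1.32 and 1.51. Its fitted log2 fold change was 1.36 (SE 0.43).

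The costimulatory B7 genes were also near the limit of detection. Cd86 was counted 8, 3 and 6 times in untreated and 29, 19 and 34 times in dox replicates 1, 2 and 3, a ratio of 4.69 (2.76 to 8.44) with no overlap. Icosl was counted 5, 7 and 9 times untreated and 16, 12 and 20 times after dox, a ratio of 2.22 (1.31 to 3.91), also with no overlap. Cd80 was counted 10, 3 and 6 times untreated and 13, 9 and 8 times after dox, with overlapping groups and a ratio of 1.54 (0.836 to 2.89). In these 3 genes no library exceeded 2.18 CPM. Cd200, the ligand of Cd200r1, had 0 counts in all untreated libraries and in dox replicates 1 and 3, and 2 counts in dox replicate 2. Since 3 counts correspond to 0.192 to 0.210 CPM in these libraries, Cd200 was under that floor in every one and no fold is given.

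Of the 10 members, 8 passed the filter on low counts, while Cd80 and Cd200 did not. Cd86 and Icosl passed it through their dox libraries alone, where each had 10 or more counts in all 3, and Btla had that many in 1 untreated library and all 3 dox libraries. These 3 genes were thus tested only because of their dox counts. Of the 8, 6 (Vsir, Tnfrsf14, Btla, Cd86, Lgals9 and Icosl) passed an adjusted p of 0.05 as higher after dox and 0 as lower. Over all genes tested, 53.6% passed in either direction, 27.0% as higher and 26.6% as lower. Groups did not overlap for the same 6 members, against 62.2% of all genes tested. The median log2 fold change was 0.95 over the 8 and 0.01 over all genes tested. Nothing is read from these counts, because the comparison was known when the members were chosen. Leaving out single libraries left 4 to 6 members past the threshold. Btla did not pass without untreated replicate 1 or 3 or dox replicate 1 or 3, and Icosl did not pass without untreated replicate 1 or 2 or dox replicate 1 or 3.

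Levels of different genes were set side by side as CPM per kilobase of the deposited gene length. In untreated cells the order was Lgals9 (409 ± 2.23), Cd47 (175 ± 5.46), Tnfrsf14 (12.4 ± 0.925), Vsir (2.18 ± 0.163) and Cd274 (1.93 ± 0.188, SD, n = 3). The intervals of mean ± SD of Vsir and Cd274 overlapped, so their order is not resolved. Cd80, Icosl, Btla and Cd86 followed between 0.256 and 0.153, each overlapping its neighbour, and Cd200 was at 0. After dox Vsir followed Lgals9 and Cd47, at 25.4 ± 2.87, and overlapped Tnfrsf14 at 20.96 ± 3.89, while Cd274 was at 2.44 ± 0.570. Cd86 (0.710 ± 0.172) then came before Btla, Cd80 and Icosl, which lay between 0.437 and 0.384 and overlapped as neighbours. On this scale Vsir was at 1.25% of the level of Cd47 in untreated cells and at 15.6% after dox.

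**Figure D2:**
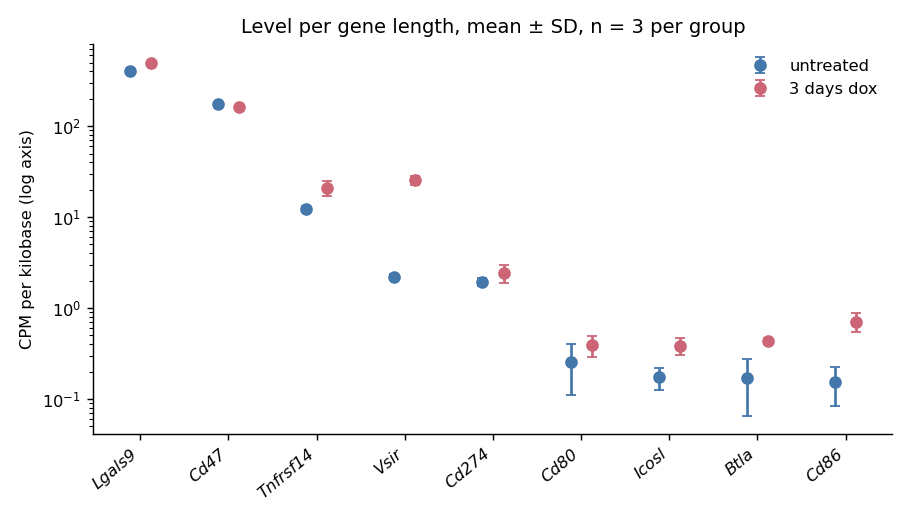
CPM per kilobase of gene length (vertical log axis, mean ± SD, n = 3) for 9 members in the order of their untreated level, in untreated (blue) and dox libraries (red). Cd200 is not drawn, since it was at 0 in the untreated libraries. Vsir moves from the level of Cd274 (2.18 and 1.93) to that of Tnfrsf14 (25.4 and 20.96), while Lgals9 and Cd47 keep the first places.

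Some members share features that the choice did not use. Of the 10, 5 (Btla, Cd200, Cd47, Cd80 and Cd86) lie on chromosome 16, and Vsir and Icosl both lie on chromosome 10. The share of all genes on these chromosomes was not measured, so nothing is read from their counts. For 9 members the table of RefSeq promoters held a sequence, and in 4 of them (Cd274, Tnfrsf14, Lgals9 and Btla) the 250 bases before the start held the interferon response core GAAANNGAA on either strand, against 7.13% of all such stretches. The 30 bases around each match are shown, since this was the only one of the 3 motifs found in several members. The match is in capitals (build GRCm38.p6, gene strand, 5′ to 3′). They lie at chr19:29367352-29367381 (plus strand), chr4:154928121-154928150 (minus strand), chr11:78984959-78984988 (minus strand) and chr16:45224117-45224146 (plus strand).
Cd274: actgggtggcTTCGGTTTCacagacagcgg
Tnfrsf14: tattttttctTTCATTTTCacttttccttg
Lgals9: gacatcagctTTCTTTTTCtctagacactt
Btla: cagagggcttGAAAGAGAAcagcaggtcgg
The matches began 76, 63, 54 and 210 bases before the start. Icosl held a kappaB match 111 bases before its start, no motif overlapped another, and GCGTGAC was in no member's stretch. A match of letters is not a site of binding. The fitted fold changes of the 4 members with the interferon core were 1.26 (Cd274), 1.69 (Tnfrsf14), 1.21 (Lgals9) and 2.57 (Btla). Those of the tested members whose stretch lacked it were 11.6 (Vsir), 2.2 (Icosl) and 0.927 (Cd47).

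Genes of the interferon gamma route, which is known to induce Cd274, were measured for comparison. Of the 6 genes reported here, all tested, 3 rose (Ifngr2, Jak2 and Jak1), 0 fell and 3 did not pass (Ifngr1, Irf2 and Irf1), with a median log2 fold change of 0.15. Ifngr2, a receptor chain, rose by 0.98 (SE 0.09, adjusted p = 2.83e-05, edgeR), and the kinase gene Jak2 by 0.82 (SE 0.07, adjusted p = 2.94e-05). Irf1, the factor through which the route is known to reach Cd274, changed by 0.01 (SE 0.09, adjusted p = 0.947). The rise of Jak1 (0.22, SE 0.07) was not called without untreated replicate 1, 2 or 3 or without dox replicate 1 or 3 (adjusted p = 0.0681 to 0.119, edgeR).

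Of 13 receptors and other binding partners of the members, 5 were tested. Of these, 3 rose (Tnfsf14, Lta and Sirpa), 0 fell and 2 did not pass (Ctla4 and Selplg), with a median of 2.17. For this and the other lists, the values over all genes tested were 27.0% higher, 26.6% lower and a median of 0.01. Nothing is read from the count or median of the partners, since the low-count filter favours scarce genes that are higher after dox, such as Tnfsf14. Tnfsf14 and Lta encode ligands of Tnfrsf14. Tnfsf14 was counted 2, 1 and 1 times in untreated and 26, 13 and 35 times in dox replicates 1, 2 and 3, a ratio of 18.0 (6.74 to 67.7), and passed the low-count filter through its dox libraries alone. Lta measured 3.08, 2.08 and 3.60 CPM untreated and 10.7, 11.4 and 20.9 CPM after dox, with dox replicate 3 highest (log2 fold change 2.30, SE 0.30, adjusted p = 0.000252, edgeR). Both ligand genes were thus higher in each dox library than in any untreated one. Cd160, another receptor that binds Tnfrsf14, had 11, 7 and 5 counts untreated and 9, 6 and 9 after dox, a ratio of 1.01, and was not tested. Sirpa, the receptor of Cd47, measured 1.61, 1.34 and 0.884 CPM untreated and 6.78, 5.01 and 5.57 CPM after dox (2.17, SE 0.26, adjusted p = 0.000133). Sirpa is also a gene of myeloid cells, whose markers are given further on. Selplg, which encodes PSGL-1, a ligand of selectins reported to bind VISTA, changed by 0.26 (SE 0.12, adjusted p = 0.0882, and 0.0467 without dox replicate 2), and Ctla4 by −0.23 (SE 0.43, adjusted p = 0.679). Of the 8 partners not tested, Pdcd1, Cd28, Icos and Igsf11 had 0 counts in every library, and Havcr2, Cd160, Cd200r1 and Thbs1 had 22 counts or fewer in each. Thbs1 was counted 8, 2 and 4 times untreated and 22, 10 and 10 times after dox. Its ratio was 2.92 (1.56 to 5.78), with no overlap.

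Among 20 other surface or secreted ligands, 8 were tested, 3 rose (Ceacam1, Clec2d and Lgals3), 1 fell (Cd24a) and 4 did not pass, with a median of 0.48. Ceacam1, an adhesion molecule and ligand of Havcr2, measured 27.2, 26.0 and 30.9 CPM untreated and 88.5, 99.1 and 72.0 CPM after dox (log2 fold change 1.63, SE 0.12, adjusted p = 1.32e-05, edgeR). Clec2d, a lectin-like ligand of an inhibitory natural killer receptor, rose by 0.80 (SE 0.09, adjusted p = 9.26e-05). Lgals3, another galectin that macrophages also make, rose by 1.52 (SE 0.41, adjusted p = 0.0116) from 22 counts or fewer in each untreated library. Lgals3 had 10 or more counts in 2 untreated and all 3 dox libraries, so it was tested only because of its dox counts. Its log2 fold change was 1.06 with dox replicate 2 as the sole dox library. Cd24a, a heavily glycosylated surface protein of B progenitors and a ligand of Siglec receptors, measured 1933, 1920 and 1932 CPM untreated and 981, 1042 and 1128 CPM after dox (−0.88, SE 0.08, adjusted p = 3.19e-05). It was thus the tested gene of this list that went down, in all 3 dox libraries. Cd48, Lgals1, Tnfsf9 and Pvr changed by 0.05, 0.09, 0.46 and 0.50 (SE 0.11, 0.17, 0.23 and 0.41) and did not pass. Pdcd1lg2, which encodes PD-L2, had 1 to 4 counts per library, and Vtcn1, Nectin3, Cd70, Btn2a2, Fgl1 and Ulbp1 had 0 in all.

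Genes that act on the members' proteins were counted as well, 9 in all and 7 tested. Of these, 4 rose (Marchf1, Adam10, Cmtm6 and Adam17), 0 fell and 3 did not pass (Qpctl, Spop and Marchf8), with a median of 0.23. Marchf1, a membrane ubiquitin ligase that removes CD86 from the surface, measured 1.05, 0.470 and 0.340 CPM untreated and 5.92, 5.36 and 6.27 CPM after dox (log2 fold change 3.23, SE 0.33, adjusted p = 6.06e-05, edgeR). With 10 or more counts in 1 untreated and all 3 dox libraries, Marchf1 was tested only because of its dox counts. Cd83, whose protein opposes that ligase, had 1, 1 and 0 counts and then 8, 3 and 9, too few to test. Cmtm6, which keeps PD-L1 at the surface, measured 76.6, 71.1 and 81.8 CPM untreated and 147.7, 139.5 and 134.6 CPM after dox (0.88, SE 0.08, adjusted p = 2.45e-05). Adam10, a protease that sheds surface proteins, rose by 0.91 (SE 0.08, adjusted p = 2.04e-05). Adam17, a related sheddase, rose by 0.23 (SE 0.07, adjusted p = 0.0183), and was not called without untreated replicate 2 or 3 or without dox replicate 3 (adjusted p = 0.0503 to 0.078). Qpctl, whose enzyme modifies CD47 at the site Sirpa binds, changed by 0.11 (SE 0.11, adjusted p = 0.436), and Spop, an adaptor for the breakdown of PD-L1, by −0.04 (SE 0.07, adjusted p = 0.68).

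**Figure D3:**
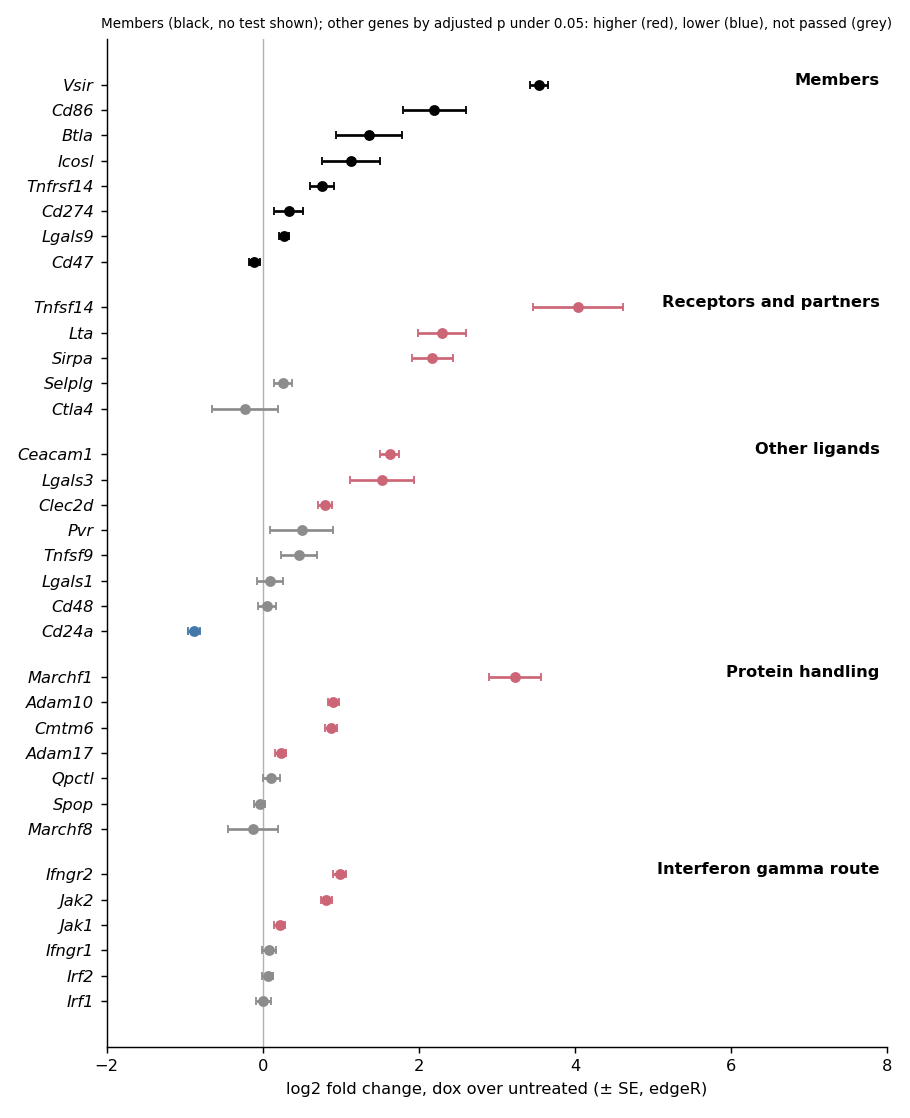
Log2 fold change of dox over untreated (horizontal axis, ± SE, edgeR) for the 8 tested members (black, shown without a test) and the tested genes of the 4 lists above, in red where higher, blue where lower and grey where the adjusted p was 0.05 or more. Vsir (3.54), Tnfsf14 (4.04) and Marchf1 (3.23) lie farthest to the right, and Cd24a (−0.88) is the blue point.

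The genes whose levels followed Vsir most closely were found by the root mean square difference of log2 CPM over the 6 libraries, after centring each gene on its own mean, among 9970 genes of at least 5 CPM in a group. The smallest differences were those of Plxdc1 (0.129), a plexin domain membrane protein, Tmc7 (0.154), a transmembrane channel-like gene, Myo7a (0.172), an unconventional myosin, Cd22 (0.241), an inhibitory co-receptor of B cells, and Pde4c (0.255), a phosphodiesterase. Their fold changes were 10.8, 12.7, 9.48, 9.18 and 18.5, near that of Vsir in all but Pde4c. Plxdc1 measured 8.81, 7.85 and 6.93 CPM untreated and 91.9, 79.7 and 83.4 CPM after dox. The measure rests on 6 libraries in 2 groups and describes likeness of change across libraries, not of level. Fold changes near that of Vsir follow from how these genes were picked.

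Markers of other cells in the marrow moved with the treatment in part. The 8 neutrophil markers, led by S100a9 and S100a8, summed to 106.9, 82.6 and 97.5 CPM in untreated replicates 1, 2 and 3 and to 496.8, 105.2 and 235.5 CPM in dox replicates 1, 2 and 3, and 7 of 7 tested were called higher. The 10 macrophage markers, led by Lyz2 and Vcam1, summed to 27.9, 19.6 and 25.6 CPM untreated and 107.7, 45.1 and 59.6 CPM after dox, with 6 of 8 tested called higher. Cd68 (mean 3.63 CPM untreated and 4.30 CPM after dox) and Ccr2 (0.542 and 1.36 CPM) did not pass. Of those called higher, Adgre1 had 10 or more counts in 0 untreated libraries, C1qa and C1qb in 1, and Csf1r and Vcam1 in 2. These genes were tested only because of their dox counts. The same holds for Mpo of the neutrophil list, with 10 or more counts in 2 untreated libraries. Over all genes tested, 27.0% were called higher. Csf1r, the receptor of macrophage growth factor, measured 0.869 ± 0.300 and 3.59 ± 1.24 CPM (SD, n = 3). In dox replicate 2 the neutrophil sum lay within the untreated range, although Ngp, Ltf and Mpo of that list each lay above their own untreated values, and Lyz2 stood at 16.7 CPM, against 13.2 to 18.7 CPM untreated. Vsir measured 128.0 CPM there. A fit with dox replicate 2 as the sole dox library was added after the data were seen. In it the log2 fold changes of Vsir, Tnfrsf14 and Lgals9 were 3.58, 0.91 and 0.25, against 3.54, 0.76 and 0.27 with all dox libraries. Those of Btla, Cd86 and Icosl were 1.25, 1.73 and 0.78 there, against 1.36, 2.20 and 1.14 with all dox libraries. That fit assumes that the lone library varies as the untreated ones do. Other macrophage markers did differ in that library, with C1qa at 4.80 CPM against 0.268 to 1.68 CPM untreated and Vcam1 at 9.26 against 0.544 to 2.59 CPM, while Cd14 was at 0 and Ccr2 (0.696 CPM) lay within the untreated range. The part of myeloid RNA in the members' differences was not tested.

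Markers of other cell types had low values. The dendritic sums were 0.419, 0.201 and 0.408 CPM in untreated replicates 1, 2 and 3. In dox replicates 1, 2 and 3 they were higher, at 1.78, 1.18 and 1.02 CPM. The part of such cells in the members' differences was not tested. The 6 T cell markers summed to 0.768 CPM or less in every library, with Cd3e and Cd8a at 0 throughout, the 6 dendritic markers to 1.78 CPM or less with Cd209a at 0, and the 4 platelet markers to 0.658 CPM or less. The 6 natural killer markers summed to between 3.29 and 9.89 CPM, with Klrb1c the largest part in every library, with Klre1 at 0. The 5 erythroid markers, led by Hba-a1 and Hbb-b1, summed to between 1.18 and 6.91 CPM, and 0 of the 3 tested passed. Of these lists, Itgax (dendritic) and Prf1 (natural killer) were called higher. Itgax, with 3, 2 and 4 counts untreated and 20, 15 and 12 after dox, was tested only because of its dox counts. Prf1 had 2, 3 and 10 counts untreated and 17, 9 and 19 after dox, and its groups overlapped in CPM. It had 10 or more counts in 1 untreated and 2 dox libraries.

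**Figure D4:**
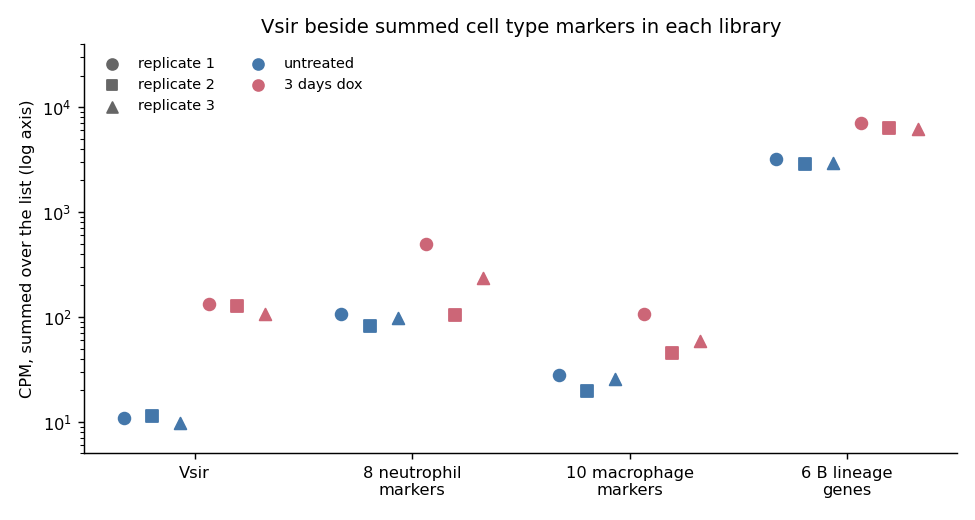
CPM of Vsir and CPM summed over the neutrophil, macrophage and B lineage markers (vertical log axis) in each library, with untreated in blue, dox in red and the marker shape giving the replicate. In dox replicate 2 the neutrophil sum (105.2) lies among the untreated values and the macrophage sum (45.1) above them (19.6 to 27.9), while Vsir (128.0) lies with the other dox libraries.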

How the data were processed

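RNA sequencing counts of 3 untreated and 3 dox libraries were used. The authors deposited raw read counts for each gene, beside an Entrez identifier and a gene length. CASAVA 1.8.2, featureCounts and the build mm9 are named per the submitters' processing notes. Aligner, annotation and strandedness: not given in the sources used here. The 6 per-sample files equalled the series table. Identifiers were matched to RefSeq symbols of GRCm38.p6 (24176 of 26286), which was used for names, neighbours and promoter sequences only.

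filterByExpr at a minimum count of 10 left 12275 genes with 99.93% of counts. Library sizes were adjusted with TMM and genes tested with the quasi-likelihood test of edgeR 4.0.16 (R 4.3.3), no covariates, with Benjamini-Hochberg adjustment over all genes tested and calls under 0.05. SE is the log2 fold change divided by the square root of F. Ratio intervals are exact binomial (95%) and cover counting error only. The code was tested on simulated data. Alternatives were other scalings and filters, DESeq2 1.42.0, limma 3.58.1 voom, a replicate block, leaving out each library, and dox replicate 2 alone, added after the data were seen. Members and lists were chosen with earlier results of these data known.

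Genes named are all members, up to 6 list genes with the smallest p and any behind a count of 5 or fewer, the 5 genes nearest Vsir over libraries (pseudocount 0.5 CPM), genes beside Vsir, Pax5 and the most abundant markers. Deviations from group means of same-numbered libraries correlated at 0.315, 0.293 and −0.040, so the numbers were not taken to pair mice. Some genes of the interferon gamma and B lineage lists are not reported here, and the counts and sums given for these lists leave them out.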

Additional observations from a re-analysis of the deposited data

How the results depend on the processing

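The count of members called higher was 6 in the main comparison and ran from 4 to 6 over the other scalings, filters, tests and left-out libraries, with 0 called lower in each of them. As above, nothing is read from these counts, because the comparison was known when the members were chosen. Dox replicate 2 alone, an alternative chosen after seeing the data, leaves 1 dox library, so only its fold changes are given. Over all alternatives the log2 fold change of Vsir ran from 3.47 to 3.62, that of Tnfrsf14 from 0.67 to 0.91 and that of Lgals9 from 0.24 to 0.30. That of Cd86 ran from 1.73 to 2.54 and that of Btla from 0.97 to 1.87. Icosl ran from 0.78 to 1.35 (a filter at 1 CPM left it untested), Cd274 from 0.13 to 0.47 and Cd47 from −0.15 to −0.04. Beside the single libraries named above, Btla did not pass with the DESeq2 test, and Icosl passed neither with that test nor without the low-count filter. With the replicate number as a replicate block, 6 members were higher, and over all genes 3434 were higher and 3356 lower, against 3316 and 3266 without it. Selplg passed with that block (0.26, adjusted p = 0.0203, edgeR). Of the untreated libraries, 2 of 3 correlated best with their own number, a hint from the data and not the design. Order by level per length kept 17 to 20 of 20 places when single libraries were left out. Scaling moved the median of all genes by less than 0.1 on the log2 scale. Genes under about 10 counts per library, Cd80, Cd200 and the untreated values of Btla, Cd86 and Icosl, are limited by depth.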
